A study of Homo sapiens with 6 samples.

Results

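The BCL2 family decides whether a stressed cell opens its mitochondrial outer membrane and dies. Genes of its main classes, 10 in all, were followed here, chosen by name with earlier results of these data known. They were the effectors BAX and BAK1, the BH3-only genes BBC3, PMAIP1, BID, BIK and BCL2L11, and the guardians BCL2, BCL2L1 and MCL1. All 10 members had a row among the 30560 genes of the table. RNA sequencing was done on HCT116, an established human colorectal carcinoma line labelled as wild type in genotype. There were 3 samples given DMSO, the solvent control, and 3 given irinotecan (CPT-11) at 10 µM for 48 hours. How long DMSO was applied is not stated, so a matched exposure time cannot be assumed. The submitters' description of the design mentions duplicates, although 3 libraries are labelled for either treatment. This mismatch was not resolved, and no library was set aside because of it. Irinotecan is a prodrug whose active product traps topoisomerase I on DNA and so leads to strand breaks in cycling cells.

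Proteins of this family meet through a short helix called the BH3 domain. BH3-only proteins sense damage and insert this helix into a groove of the other members. The effectors BAX and BAK1 then assemble pores through which cytochrome c leaves the mitochondrion, while the guardians hold effectors and BH3-only proteins in check. BBC3 encodes the protein PUMA and PMAIP1 the protein NOXA.

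The helix is what the classes share, so the coding bases of its core are shown for each member. They were found in frame in 1 GENCODE 29 transcript per gene as a leucine codon, then 3 codons, then a glycine or alanine codon and an aspartate codon. Each of the 10 transcripts held 1 such match. Capitals mark the leucine codon and the glycine or alanine and aspartate codons, 8 codons are printed, and each line reads along the gene's own strand.
BAX: CTCaagcgcatcGGGGACgaactg
BAK1: CTCgccatcatcGGGGACgacatc
BBC3: CTGcggcggatgGCGGACgacctc
PMAIP1: CTCaggagatttGGAGACaaactg
BID: CTCgcccaggtcGGGGACagcatg
BIK: CTGgcctgcatcGGGGACgagatg
BCL2L11: TTGcggcgtattGGAGACgagttt
BCL2: CTCcgccaggccGGCGACgacttc
BCL2L1: CTGagggaggcaGGCGACgagttt
MCL1: TTAcgacgggttGGGGATggcgtg
Glycine stood before the aspartate in 9 of the 10, in effectors and guardians as in BH3-only genes. BBC3 had alanine there.

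The 6 libraries held 15398464 to 18031195 reads on genes. Values are given as normalized counts, which are reads on a gene divided by 1 size factor per library, and 1 read was worth 0.882 to 1.07 of them. Libraries numbered 1 stood apart in both groups, where their reads differed from their fellows by a chi-square of 8 to 11.5 for each degree of freedom, against 3.19 to 3.86 between the others. The mitochondrial chromosome took 6.84% to 7.45% of reads in controls and 9.70% to 10.9% after CPT-11. The epithelial markers EPCAM, KRT8, KRT18, CDH1 and CDX2 were all expressed, whereas VIL1 stayed between 1.0 and 6.31 normalized counts. Of 9 markers of leukocytes, fibroblasts and endothelium, COL1A1 had 592 ± 60.4 normalized counts in controls and 1068 ± 155 after CPT-11 (SD, n = 3). The other markers with a row summed to 22.5 to 32.1 in controls and 33.7 to 42.3 after CPT-11. The part of these differences in the results was not tested. In RNA from whole cultures, fewer cells expressing a gene and less RNA per cell cannot be told apart.

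After CPT-11 all 7 pro-death members rose, and among the guardians BCL2 and BCL2L1 fell and MCL1 rose. BBC3 rose 2.53-fold, PMAIP1 2.40-fold and BAK1 2.17-fold, while BID rose 1.20-fold. Of the 10 members 8 were higher and 2 lower at an adjusted p below 0.05 (limma with Benjamini-Hochberg adjustment over 16239 tested genes). Over all tested genes 49.4% were called, 24.3% higher and 25.1% lower. The median log2 fold change was 0.81 over the 10 members and 0.01 over all tested genes. In 8 members every CPT-11 library lay above every control and in BCL2 every one lay below, whereas 56.6% of tested genes had groups without overlap, 27.8% higher and 28.8% lower. The calls of BID, BCL2 and BCL2L1 lay close to the threshold, and each was lost when some single libraries were left out. These calls and that of MCL1 were also lost once the trend of fold change over gene span was removed. Whether samples of 1 group came from separate cultures is not stated, so the p-values speak of the spread among these samples alone, which may be technical.

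**Figure D1:**
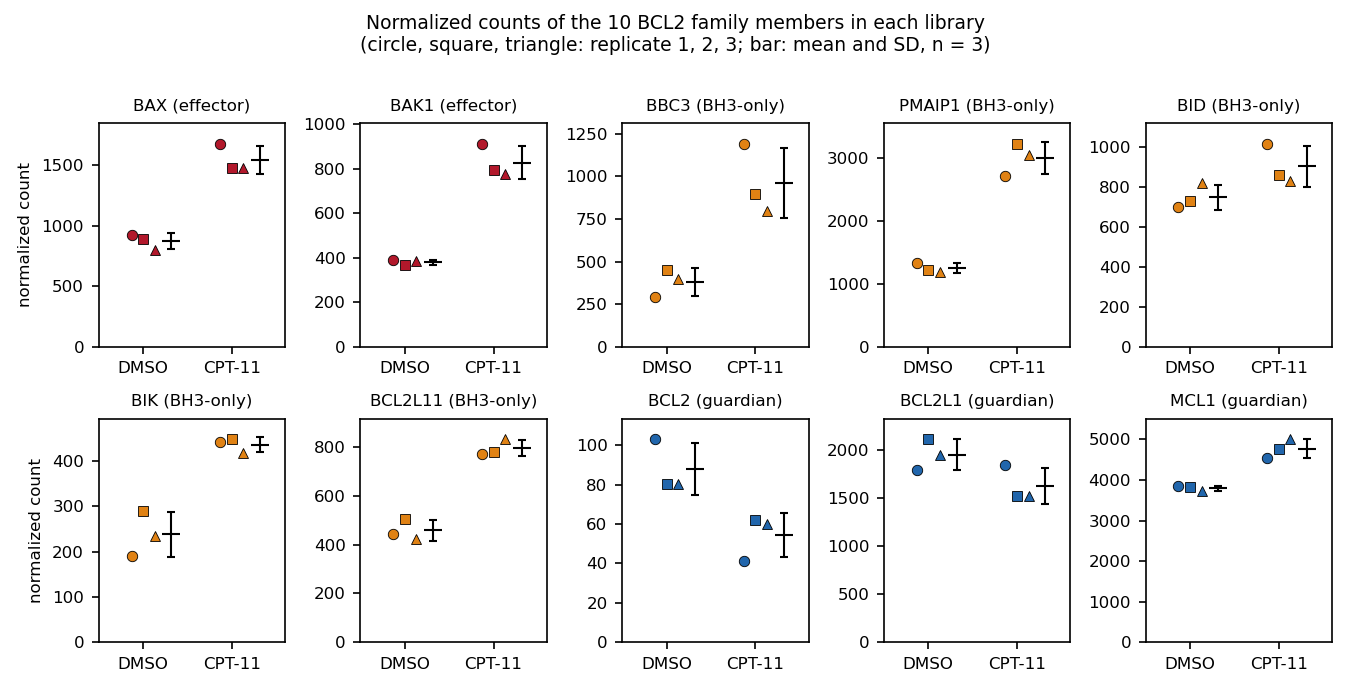
Normalized counts of each member (y axis, from 0) in the 3 DMSO and the 3 CPT-11 libraries, with circles, squares and triangles for replicates 1, 2 and 3 and a bar for the mean and SD. The 2 groups are apart in 9 genes, and only BCL2L1 overlaps, with CPT-11 sample 1 at 1843 and DMSO sample 1 at 1790.

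Both effectors rose. BAX (ENSG00000087088, chr19:48954815-48961798, plus strand, GRCh38), whose protein moves from the cytosol into the mitochondrial membrane, had 923, 890 and 798 normalized counts in DMSO samples 1, 2 and 3. CPT-11 samples 1, 2 and 3 held 1676, 1471 and 1473. All 3 treated samples stood well above the controls, and the log2 difference was 0.82 (SE 0.10, adjusted p = 2.18e-06). BAK1 (ENSG00000030110, chr6:33572547-33580293, minus strand), whose protein resides in that membrane, had 389, 368 and 385 in controls and 914, 795 and 776 after CPT-11. The controls differed little from each other, with a coefficient of variation of 2.91%, and each treated sample was about double any control, and the log2 difference was 1.12 (SE 0.11, adjusted p = 1.62e-07). BAK1 thus went from 33.9% ± 1.89 to 38.6% ± 0.43 (SD, n = 3) of the effector transcripts, counted per kb of exon.

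The BH3-only genes rose by unequal amounts. BBC3 (ENSG00000105327, chr19:47220822-47232766, minus strand), whose protein binds all guardians, had 294, 453 and 395 normalized counts in controls and 1193, 896 and 797 after CPT-11. It had the highest log2 fold change of the members, 1.34 (SE 0.16, adjusted p = 1.68e-06), above that of 96.3% of tested genes. Its extremes were both libraries numbered 1, lowest of the controls and highest of the treated samples, and without those libraries the log2 fold change was 1.0 and still passed, below the 1.38 of PMAIP1. PMAIP1 was also ahead without DMSO replicate 1 (1.32 against 1.16 for BBC3) and without CPT-11 replicate 1 (1.33 against 1.17). PMAIP1 (ENSG00000141682, chr18:59899948-59904306, plus strand), whose protein binds chiefly MCL1, had 1333, 1216 and 1182 in controls and 2711, 3224 and 3046 after CPT-11. The treated samples were all more than 2 times the highest control, and the log2 difference was 1.26 (SE 0.09, adjusted p = 6.60e-09). CPT-11 sample 1 was the lowest treated sample for PMAIP1 and the highest for BBC3.

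BIK (ENSG00000100290, chr22:43110748-43129712, plus strand), a BH3-only protein found largely at the endoplasmic reticulum, had 191, 289 and 235 normalized counts in controls and 442, 448 and 416 after CPT-11. The controls were the more scattered group, with a coefficient of variation of 20.6% against 3.82%, and the groups did not overlap (log2 fold change 0.89, SE 0.14, adjusted p = 5.80e-05). BCL2L11 (ENSG00000153094, chr2:111119378-111168447, plus strand), which encodes BIM, a strong activator of the effectors, had 445, 506 and 422 in controls and 771, 779 and 831 after CPT-11. Its log2 fold change was 0.80 (SE 0.11, adjusted p = 8.78e-06). It shares 10.9% of its exon bases with the antisense-strand gene MIR4435-2HG, which went the other way, from 381 ± 21.1 to 159 ± 10.3 (SD, n = 3).

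BID (ENSG00000015475, chr22:17734138-17774770, minus strand), which links death receptors to mitochondria once caspase-8 cleaves it, moved least of the BH3-only genes. It had 700, 730 and 819 normalized counts in controls and 1018, 860 and 832 after CPT-11. The lowest treated sample was barely above the highest control (log2 fold change 0.27, SE 0.11, adjusted p = 0.04997). Without DMSO replicate 1 the log2 fold change was 0.22 (adjusted p = 0.104), without DMSO replicate 2 it was 0.25 (0.129), without CPT-11 replicate 1 it was 0.18 (0.184) and without CPT-11 replicate 2 it was 0.30 (0.0785). In the authors' deposited table BID had an adjusted p of 0.0690, and the other 9 members were below 0.05, as were 24.5% of all genes there. That share is over all 30560 genes, including those too low to be tested here. It is therefore not comparable with the 49.4% called over the 16239 tested genes.

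The guardians differed in direction and in level. MCL1 (ENSG00000143384, chr1:150574551-150579738, minus strand), a short-lived guardian and the chief partner of PMAIP1, had 3845, 3817 and 3734 normalized counts in controls and 4542, 4761 and 5007 after CPT-11. All treated samples were higher, by a small and even margin (log2 fold change 0.33, SE 0.08, adjusted p = 0.00289), though not past the threshold with the span trend removed (0.13, 0.219). BCL2L1 (ENSG00000171552, chr20:31664452-31723989, minus strand), which encodes BCL-XL, had 1790, 2114 and 1948 in controls and 1843, 1524 and 1520 after CPT-11. The groups overlapped, since CPT-11 sample 1 exceeded DMSO sample 1 (log2 fold change -0.26, SE 0.10, adjusted p = 0.0381).

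The fall of BCL2L1 did not pass without DMSO replicate 2 (-0.20, adjusted p = 0.169), DMSO replicate 3 (-0.26, 0.0902), CPT-11 replicate 2 (-0.22, 0.163) or CPT-11 replicate 3 (-0.22, 0.144). With libraries scaled by their totals its adjusted p was 0.0751. BCL2L1 shares 43.0% of its exon bases with ABALON on the opposite strand, which had 143 ± 14.8 and 180 ± 38.9 normalized counts (SD, n = 3). Whether counting used strand is not stated by any label or header, so reads of BCL2L1 and ABALON may be mixed. Gene counts also sum the splice forms of BCL2L1, BCL2L11 and MCL1, some of which are known to act against each other.

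BCL2 (ENSG00000171791, chr18:63123346-63320128, minus strand), the founding guardian, was the least expressed member. It had 103, 80.2 and 80.2 normalized counts in controls and 41.4, 61.8 and 59.9 after CPT-11, from 263 reads over the controls and 165 over the treated libraries. All treated samples were lower (log2 fold change -0.69, SE 0.22, adjusted p = 0.0146). Libraries numbered 1 were again the extremes. Without DMSO replicate 1 the log2 fold change was -0.57 (adjusted p = 0.0544), without CPT-11 replicate 1 it was -0.51 (0.0730), and without both it was -0.39 (0.192).

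Genes were compared in level as normalized counts per kb of exon. In controls MCL1 came first with 869 ± 13.2 per kb (SD, n = 3), followed by BCL2L1 with 589 ± 48.9 and PMAIP1 with 557 ± 35.3. BCL2L1 and PMAIP1 overlapped there, as did BAK1 (172 ± 5.0) and BID (169 ± 14.0). BAX had 336 ± 25.1 per kb, BIK 250 ± 51.4, BBC3 120 ± 25.2, BCL2L11 68.7 ± 6.56 and BCL2 7.46 ± 1.12. After CPT-11 the order changed at the top. PMAIP1 led with 1339 ± 116 per kb, with no overlap with MCL1 at 1091 ± 53.3, and BAX with 595 ± 45.5 stood above BCL2L1 with 491 ± 55.9. When counts were not divided by exon length, MCL1 stayed above PMAIP1 and BCL2L1 above BAX. Per kb, BCL2L1 after CPT-11 overlapped BIK (457 ± 17.4), and BAK1 (375 ± 33.8) overlapped BBC3 (302 ± 64.8). BID (203 ± 22.6), BCL2L11 (119 ± 4.90) and BCL2 (4.62 ± 0.96) stayed lowest in that order.

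Summed per kb, the BH3-only genes went from 1164 ± 59.8 to 2421 ± 74.2 and the effectors from 508 ± 25.2 to 970 ± 79.2 (SD, n = 3). The guardians went from 1465 ± 46.9 to 1587 ± 29.2, with MCL1 higher and the other two lower. As a share of all 10 members, which does not depend on how libraries are scaled, guardians made up 46.7% ± 0.32 in controls and 31.9% ± 0.90 after CPT-11. BH3-only genes made up 37.1% ± 0.78 and 48.6% ± 1.44, and effectors 16.2% ± 0.96 and 19.5% ± 1.32. None of the 3 shares overlapped between groups. The shares of a library sum to the whole, so they are not separate observations. Per kb, the ratio of pro-death to guardian transcripts was 1.15, 1.15 and 1.12 in the controls, against 2.16, 2.21 and 2.04 in the treated samples. When counts were not divided by exon length, guardians made up 57.5% of the members in controls and 43.3% after CPT-11. Whether pro-death transcripts outnumbered guardian transcripts in controls thus depends on that scaling. No test was run on these sums, because members were chosen with results known and 3 against 3 cannot reach an exact two-sided p under 0.1. PMAIP1 alone made up 48.0% ± 4.92 of the BH3-only sum in controls and 55.3% ± 4.05 after CPT-11. MCL1 made up 59.4% ± 2.05 and 68.8% ± 3.30 of the guardian sum, and BCL2 0.511% ± 0.089 and 0.292% ± 0.063.

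**Figure D2:**
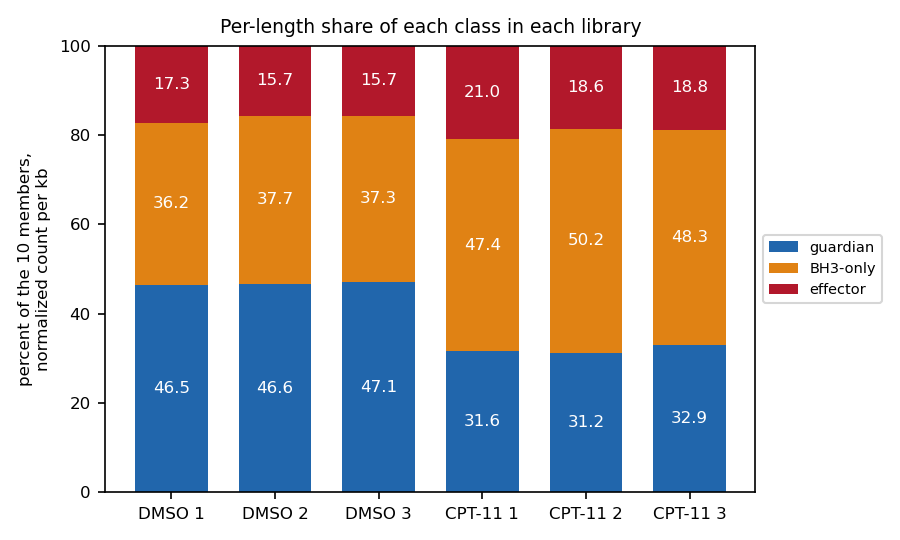
Percent of the 10 members' normalized counts per kb (y axis, 0 to 100) taken by guardians, BH3-only genes and effectors in each of the 6 libraries, printed in the bars. Guardians take 46.5% to 47.1% in the controls and 31.2% to 32.9% after CPT-11.

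The levels were also read gene against gene, as the log2 ratio of a pro-death to a guardian transcript per kb within each library. Of 21 such pairs, 20 had a higher ratio in every CPT-11 library than in every control, and 13 rose by at least 1 on the log2 scale. These pairs share 10 genes, so they are not separate observations. Among single tested genes 56.6% had groups without overlap, and no such share was computed over other gene pairs. PMAIP1 against MCL1, a known binding pair, had ratios of -0.56, -0.68 and -0.69 in controls and 0.22, 0.41 and 0.25 after CPT-11. It crossed zero on this per-kb scale. In normalized counts not divided by exon length, MCL1 stayed above PMAIP1 in all 6 libraries. BAX against BCL2L1 crossed zero too, with -0.60, -0.89 and -0.93 in controls and 0.22, 0.31 and 0.31 after CPT-11. BCL2L1 also stayed above BAX in all 6 libraries when counts were not divided by exon length. Against BCL2, a guardian with few reads, BBC3 rose by 2.04 and PMAIP1 by 1.97. BID against MCL1 was the pair that overlapped, with a mean of -2.37 ± 0.14 in controls and -2.43 ± 0.22 after CPT-11 (SD, n = 3). Changes against BCL2L1 ran from 0.53 (BID) to 1.6 (BBC3) and against MCL1 from -0.06 (BID) to 1.01 (BBC3).

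**Figure D3:**
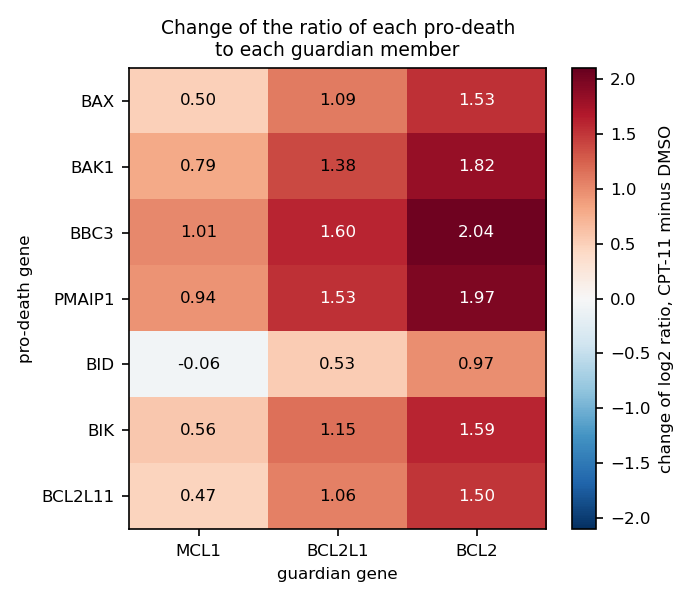
Change of the log2 ratio, CPT-11 minus DMSO (colour and printed value), of each of 7 pro-death genes (rows) to each of 3 guardian genes (columns). Changes are smallest against MCL1, which rose itself, and BID against MCL1 is near 0 at -0.06.

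Fold changes in these libraries varied with the genomic span of a gene, so each member was set beside the 500 tested protein-coding genes nearest to it in span. BCL2 spans 197 kb, and genes of its span had a median log2 fold change of -0.46, against -0.69 for BCL2. With the trend over span removed BCL2 had -0.20 (adjusted p = 0.454). MCL1 spans 5.19 kb, and its neighbours in span had a median of 0.20, against 0.33 for MCL1, which had 0.13 (adjusted p = 0.219) with the trend removed. BID and BCL2L1 did not pass with the trend removed either (0.22, adjusted p = 0.110, and -0.23, 0.0709). BBC3, PMAIP1, BAK1, BAX and BIK lay among genes with medians of 0.15 to 0.18, and BCL2L11 among genes with a median of -0.004. These 6 members passed with the trend removed.

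Of 11 other BCL2 family genes, 8 entered the test, 2 rose, 2 fell and 4 did not pass, with a median log2 fold change of -0.09. That is close to the 49.4% called over all tested genes. BCL2L15, a family member known from the mouse gut, went from 15, 12.8 and 17.9 normalized counts in controls to 265, 304 and 335 after CPT-11. That is 46 reads against 920, and the log2 fold change of 4.22 (SE 0.21, adjusted p = 4.92e-11) was above that of 99.8% of tested genes. BCL2L13, a mitochondrial receptor for autophagy, rose by 0.32 (SE 0.09, adjusted p = 0.00701). The BH3-only gene BMF, whose protein is held on the cytoskeleton, went against the 5 BH3-only members. It had 56.0, 59.9 and 68.8 normalized counts in controls and 26.5, 37.5 and 20 after CPT-11 (log2 fold change -1.15, SE 0.27, adjusted p = 0.00185). BCL2L12 fell by 0.71 on the log2 scale (SE 0.11, adjusted p = 4.11e-05), but shares 33.1% of its exon bases with IRF3 on the opposite strand.

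The other 4 tested family genes did not pass. The effector-like BOK had 771 ± 166 normalized counts in controls and 942 ± 84.6 after CPT-11 (SD, n = 3, log2 fold change 0.31, adjusted p = 0.0687). BOK passed without DMSO replicate 2 (0.43, adjusted p = 0.0201) and without CPT-11 replicate 3 (0.38, 0.0433). The guardian BCL2L2, which encodes BCL-W, had 654 ± 74.3 and 574 ± 24 (log2 fold change -0.18, adjusted p = 0.182), and passed with the span trend removed (-0.36, 0.0134). The BH3-only gene BAD had 231 ± 47.9 and 199 ± 56.9 (-0.23, adjusted p = 0.334), and passed without CPT-11 replicate 1 (-0.45, 0.0457) and without both libraries numbered 1 (-0.56, 0.00747). BCL2L2 shares 24.3% and BAD 23.7% of exon bases with other genes. HRK, a BH3-only gene best known from neurons, had 42.7 ± 0.69 and 45.1 ± 18.1 (adjusted p = 0.984). BCL2L14, with 16 and 34 reads, BCL2L10, with 1 and 4, and the guardian BCL2A1, with 1 and 1, were too low to be tested.

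**Figure D4:**
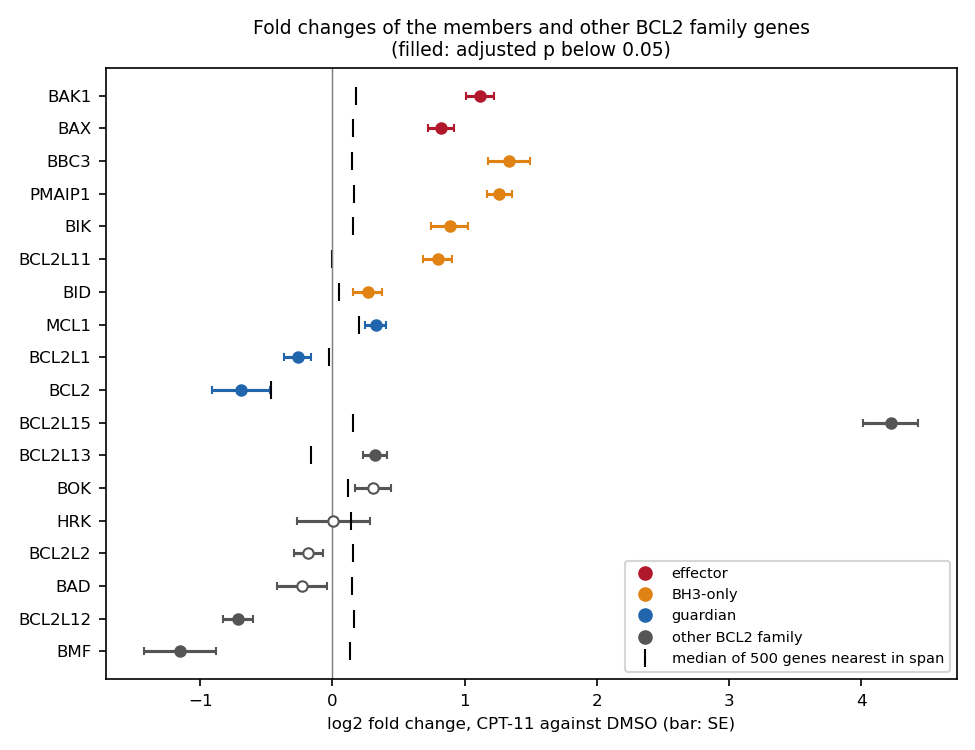
Log2 fold change with SE (x axis) of the 10 members and the 8 tested other family genes, by class, filled where adjusted p is below 0.05; black ticks give the median of the 500 protein-coding genes nearest in span. All orange and red points lie above their ticks, and BCL2L15 stands far to the right at 4.22.

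Outside the family, 5 of 12 genes of the mitochondrial death pathway rose and 7 did not pass, and the list's median log2 fold change was 0.20. Over all tested genes 49.4% were called, and 24.3% were higher. Those raised most were DIABLO, whose protein relieves caspases from inhibition, with 35.2 ± 6.31 normalized counts in controls and 65.8 ± 10.5 after CPT-11 (SD, n = 3, adjusted p = 0.00560), ENDOG, a mitochondrial nuclease (log2 fold change 0.74, adjusted p = 0.0142), and HTRA2, a protease (0.41, 0.0101). They share 30.4% (DIABLO, in part with a second gene of that name), 39.3% (ENDOG) and 36.9% (HTRA2) of their exon bases with other genes. ENDOG had 0.34 without DMSO replicate 1, and did not pass with DESeq2 (adjusted p = 0.159), without CPT-11 replicate 2 (0.0592), without both libraries numbered 1 (0.0655) or with the span trend removed (0.0710). HTRA2 did not pass without DMSO replicate 3 (0.0550) or with the span trend removed (0.21, 0.181), nor DIABLO without both libraries numbered 1 (0.0639). MTCH2, the mitochondrial docking protein of BID, rose by 0.41 (adjusted p = 0.00180), and AIFM1 by 0.27 (0.0260); both were named after their values were seen. AIFM1 did not pass without DMSO replicate 3 (0.103), CPT-11 replicate 2 (0.0960) or CPT-11 replicate 3 (0.103), or with the span trend removed (0.0934). APAF1, the scaffold of the apoptosome, had 793 ± 78.6 and 901 ± 86.9 (adjusted p = 0.173). Cytochrome c (CYCS) had 4489 ± 597 and 5142 ± 578 (0.128), and CASP9 had 196 ± 21.3 and 171 ± 8.87 (0.289). APAF1, CYCS and CASP9 were not followed singly under other settings, so their not passing is given for the main fit only. The count of 5 moved to 9 with scaling by totals without mitochondrial genes, 8 without DMSO replicate 1, 3 without DMSO replicate 3, 9 without CPT-11 replicate 1, 3 without CPT-11 replicate 2, 8 without both libraries numbered 1 and 3 with the span trend removed, where 1 gene was lower. Where the count exceeded 5, some of the 7 genes that did not pass as reported were called higher.

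Of 14 genes that control the members, 3 rose, 8 fell and 3 did not pass, and the list's median log2 fold change was -0.43. Over all tested genes 24.3% were higher and 25.1% lower. MDM2, a ubiquitin ligase, rose from 3006 ± 339 to 6406 ± 452 (log2 fold change 1.09, adjusted p = 4.29e-08). For MCL1, FBXW7 and HUWE1 encode ligases that mark the protein for degradation, and USP9X an enzyme that removes the mark. FBXW7 rose from 500 ± 15.8 to 804 ± 76.0 (log2 fold change 0.68, adjusted p = 4.35e-05). HUWE1 fell from 7336 ± 335 to 4397 ± 94.1 (log2 fold change -0.74, adjusted p = 7.87e-07) and USP9X from 3058 ± 156 to 1953 ± 128 (-0.65, 9.61e-06). With the span trend removed all 3 still passed, with HUWE1 at -0.38, USP9X at -0.30 and FBXW7 at 1.2. Among transcription factors, MYC rose by 0.46 (adjusted p = 0.000728), E2F1 fell by 1.80 and DDIT3, which can raise BCL2L11 and BBC3 under endoplasmic reticulum stress, fell by 0.74 on the log2 scale (7.50e-10 and 0.00197). MYC had 0.26 with the span trend removed, and DDIT3 shares 39.6% of its exon bases with other genes. USP9X was named after its values were seen. The count of 3 raised genes was 5 under both scalings by library totals and without both libraries numbered 1.

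By Pearson correlation of log2 values over the 6 libraries, with no test, BBC3 was most like ARVCF (r = 0.999), MYBBP1A (0.998), EIF6 (0.998) and GRAMD1A (0.998) among 10792 protein-coding genes. BCL2 was most like INTS2 (0.999), RHOT1 (0.998), HACD2 (0.998) and FAR1 (0.998). The 4 genes most like BBC3 had log2 fold changes of 0.44 to 0.71 and those most like BCL2 of -0.48 to -0.26, smaller than the member's own. These 6 points form 2 groups that differ, and every correlation here holds that difference.

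**Figure D5:**
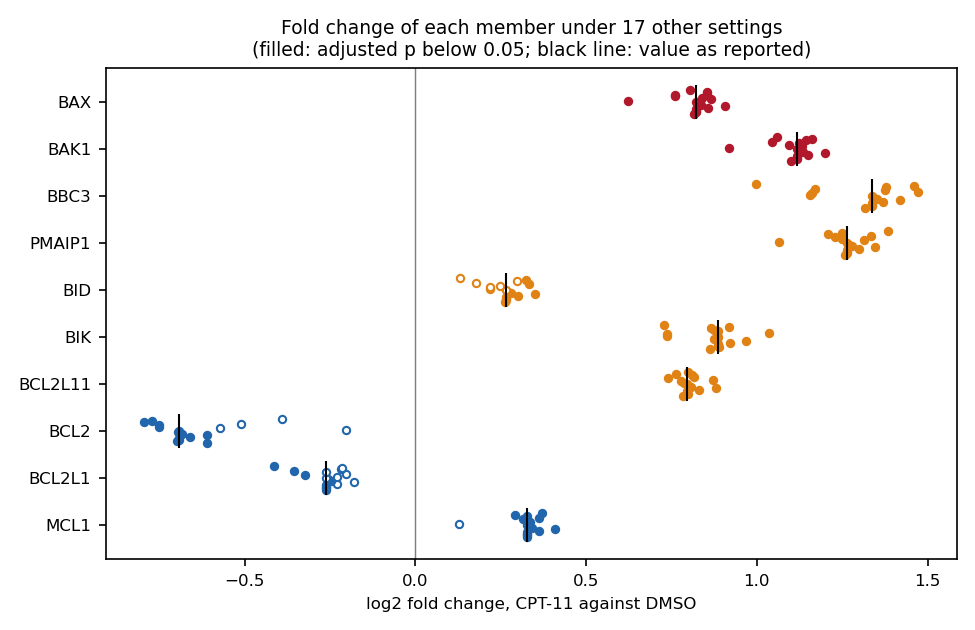
Log2 fold change (x axis) of each member under 17 other settings (points, filled where adjusted p is below 0.05) beside the reported value (black line). No point crosses 0, and the open points belong to BID, BCL2, BCL2L1 and, once, MCL1.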

How the data were processed

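The authors deposited 1 table of 30560 genes, with a signal per gene and library that is a read count divided by a size factor; in each library 100% of values were whole multiples of 1 step, within 0.001 read. Per the submitters' processing notes the tools were HISAT2 2.1.0 and fastp 0.19.3, beside edgeR 3.24.3, DESeq2 1.22.1, StringTie 1.3.4d and featureCounts 1.6.2, on GRCh38, with no role stated for each. The deposited log2 fold changes and p-values are quoted only as the authors' own. Gene ends and lengths equalled GENCODE 29 for all 30560 genes.

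Values were tested as log2(normalized count + 1) with limma 3.58.1 (mean-variance trend, R 4.3.3) on all 6 samples, for 16239 genes with a mean of at least 10, and called at a Benjamini-Hochberg adjusted p below 0.05. The count test planned first did not suit normalized values; edgeR 4.0.16 and DESeq2 1.42.0 ran on recovered reads as alternatives. Simulated reads with known changes were used to test the scripts. Errors are SD over 3 samples unless SE is written. Fold changes are CPT-11 against DMSO. Named genes are the 10 members, all measured other family genes, the 3 most raised and lowered called genes of 2 pathway lists, and the 4 genes most correlated with the members of highest and lowest fold change. From those lists APAF1, CYCS, CASP9, MTCH2, AIFM1 and USP9X were also named, outside this rule. Members and lists were chosen with earlier results of these data known. Read counts carry counting error and further spread between libraries, with a chi-square of 3.19 to 11.5 for each degree of freedom within groups. No molecular identifiers are mentioned. Results on 1 listed regulator and on a promoter motif are not reported here.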

Additional observations from a re-analysis of the deposited data

How the results depend on the processing

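Each member was recomputed under 17 other settings, and none changed sign. BAX, BAK1, BBC3, PMAIP1, BIK and BCL2L11 passed in all 17. BID (0.27) did not pass with a pseudocount of 0.5 (0.27), no filter (0.27), the replicate block (0.27), the trend over span removed (0.22) or both libraries numbered 1 left out (0.13), nor in 4 of the 6 fits that left out 1 library (0.18 to 0.30; all 6 ran from 0.18 to 0.33). BCL2 (-0.69) did not pass with the span trend removed (-0.20), without both libraries numbered 1 (-0.39), or in 2 fits that left out 1 library (-0.57 and -0.51; all 6 ran from -0.79 to -0.51). BCL2L1 (-0.26) did not pass with no filter (-0.26), library totals (-0.23), totals without mitochondrial genes (-0.18), the replicate block (-0.26), the span trend removed (-0.23) or in 4 fits that left out 1 library (-0.26 to -0.20; all 6 ran from -0.35 to -0.20). MCL1 did not pass with the span trend removed (0.13). The count of members lower, 2 as reported, was 1 with no filter, both library-total scalings, the replicate block, without both libraries numbered 1 and in each fit that left out 1 library (1 to 1), and 0 with the span trend removed. The cause was not tested beyond what each setting changes. Leaving out both libraries numbered 1 was chosen after seeing the data.

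Without per-length scaling, the classes' shares, DMSO first and CPT-11 second, were 12.3% and 16% for effectors, 30.2% and 40.8% for BH3-only genes and 57.5% and 43.3% for guardians. HRK, which did not pass (0.0081), changed sign with the span trend removed (-0.11), without DMSO replicate 1 (-0.0039) and without CPT-11 replicate 2 (-0.29), within a range of -0.29 to 0.20 over fits without 1 library. Same-numbered samples did not deviate together from their group means (correlations -0.227, -0.00564 and -0.102). With 3 samples per group these values cannot decide whether equal numbers mark a shared culture or day. The replicate block lowered the calls over all genes from 3939 to 3309 higher and from 4083 to 3503 lower. With it the limma adjusted p was 0.136 for BID, 0.117 for BCL2L1, 0.107 for AIFM1 and 0.0504 for BCL2L13. No sample correlated best with its own number. Scaling without mitochondrial genes moved the median log2 fold change of all genes by 0.08. BCL2, with 263 and 165 reads, is the member most limited by depth.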
